A study of Macaca mulatta with 30 samples.

Results

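CUX1, CUX2, POU3F2, BCL11B, FEZF2, RORB, ZBTB20 and LMO3 encode transcriptional regulators that specify the layers of the cerebral cortex or the pyramidal neurons of the hippocampus. They are 8 of the 32386 genes counted in the hippocampus of rhesus macaque fetuses exposed to antenatal corticosteroids, and were taken by gene symbol. The genes were selected on hippocampus values measured in the same 3 groups of fetuses, so their hippocampus levels are a description and carry no test. All 8 passed the minimum of 7 reads in at least 5 libraries, as did 17390 genes in all.

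Projection neurons of the forebrain keep the identity of their layer through factors that stay on after the last cell division. CUX1, CUX2 and POU3F2 (also called BRN2) belong to neurons of the superficial layers, RORB to the granular layer, and FEZF2 and BCL11B (also called CTIP2) to deep neurons that project below the cortex. In the hippocampus BCL11B is also made by pyramidal and dentate granule neurons, and ZBTB20 is needed to set the hippocampal pyramidal fields apart from the neighbouring cortex.

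Pregnant rhesus macaques had received a single intramuscular injection of saline, of Beta-Ac (betamethasone acetate) or of the clinical drug, an equal mixture of betamethasone phosphate and betamethasone acetate, and the fetuses were delivered 5 days later. Hippocampus tissue was sequenced from 5 fetuses per group, aged 130 to 136 days of gestation, and each library is a separate fetus. Libraries are called CTL (saline control), BAC (Beta-Ac) and CEL (clinical drug) followed by a number. For the hippocampus the treatment and dose fields are crossed with these names, since they give BAC the mixture at 0.25 mg/kg and CEL the acetate at 0.125 mg/kg. Groups follow the names here, because the lung labels of the same animals match the names. The dose of Beta-Ac (0.125 mg/kg) was lower than that of the clinical drug (0.25 mg/kg), so formulation and dose cannot be told apart. Whole lung came from 5 groups of 3 fetuses, which were saline, 4 h and 5 days after the clinical drug, and 6 h and 5 days after Beta-Ac. Of those fetuses, 9 also gave a hippocampus, the 3 saline ones among them. The lung labels give no time for saline, and the hippocampus labels of these 3 give 5 days. The 4 h and 6 h lung groups thus have no control known to be of the same time. All lung contrasts share the 3 saline lungs.

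Reads counted on genes numbered 18.3 to 29.3 M per hippocampus library and 14.1 to 45 M per lung library. All 10 listed markers of hippocampal neurons were found in the hippocampus table, summing to between 2952 and 4812 CPM per library (CPM, reads of a gene scaled to a common library size, after TMM normalization). The control CTL212 stood apart. Its choroid plexus markers summed to 1186 CPM against 13.1 to 32.7 in the other 14 libraries, and its mean Spearman correlation with them was 0.956 against 0.966 to 0.981. It was also the youngest fetus, at 130 days. BAC235 had the next lowest mean correlation (0.966), and its counts differed from those of the other Beta-Ac libraries with a chi-square per degree of freedom of 166 to 261, against 34.2 to 78.6 among those 4. An abundant gene without a symbol (ENSMMUG00000028670) was at 3484 CPM in CTL092 and 3099 in BAC235 but at 15843 to 40245 in the other 13 libraries. The hippocampus was sequenced in 4 runs, of which a run of 7 libraries (CTL113, BAC128, BAC130, BAC136, CEL115, CEL120 and CEL126) and a run of 5 (CTL212, BAC235, BAC237, CEL238 and CEL245) held all 3 groups. Of the other 3 controls, CTL092 and CTL101 shared a run and CTL209 was alone in its own. Values are given below with and without CTL212 and within these runs. In whole tissue, fewer cells of a type and less RNA per cell cannot be told apart.

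A gene was called when its fold change was at least 1.5, its p under 0.05 and its adjusted p under 0.1. With the clinical drug, CUX1 and CUX2 were called lower than control and none of the 8 factors was called higher. Over all tested genes 5.35% were called lower and 2.5% higher. Without CTL212, CUX1 alone was called, where 5.01% of 17300 genes were called lower and 2.83% higher. With Beta-Ac none of the 8 was called against control, and neither was any other gene (0%). edgeR thus called 0 genes there, with 2133 at an unadjusted p under 0.05, and DESeq2 called 149 genes, none of them a member. Because these contrasts were in view when the 8 genes were chosen, nothing is read from the counts. Both drugs are set against the same control libraries.

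**Figure D1:**
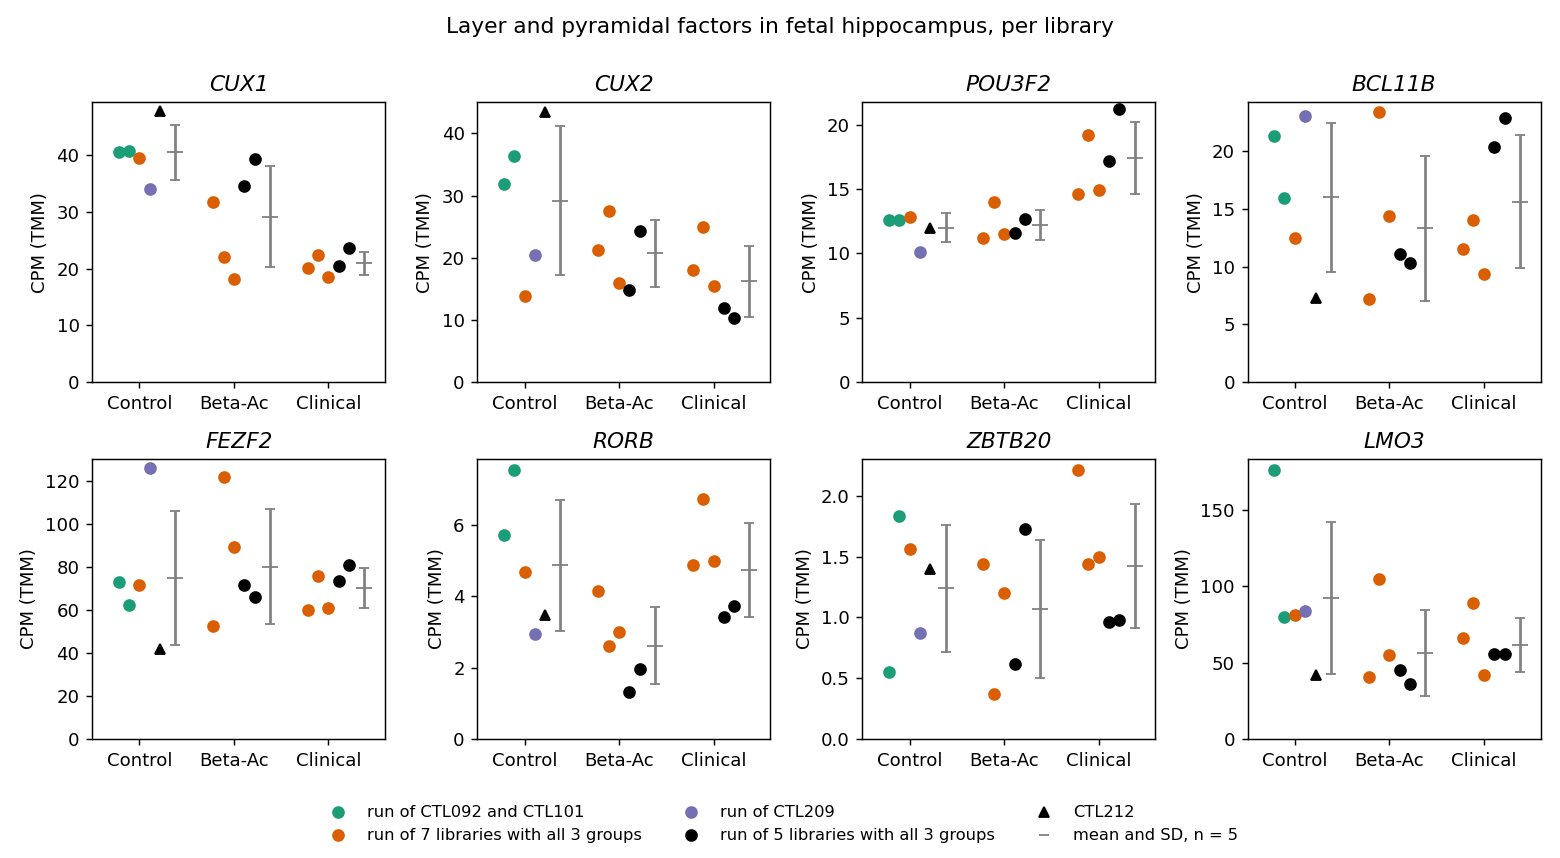
CPM of each factor (vertical axis, from 0) in the 5 control, 5 Beta-Ac and 5 clinical-drug hippocampus libraries, coloured by sequencing run, with CTL212 as a triangle and the mean and SD in grey. CUX1 of the clinical-drug libraries lies at 18.5 to 23.7, below all controls, and their POU3F2 at 14.6 to 21.2, above all controls, while the groups overlap for the other 6 factors.

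CUX1, a cut-homeobox factor of superficial-layer neurons, had the largest difference of the 8 between control and the clinical drug. Its level was 40.5, 40.7, 39.6, 34.0 and 47.9 CPM in CTL092, CTL101, CTL113, CTL209 and CTL212. It was 20.1, 22.4, 18.5, 20.5 and 23.7 CPM in CEL115, CEL120, CEL126, CEL238 and CEL245. All 5 clinical-drug libraries thus lay below all 5 controls, as was the case for 10% of all tested genes. Beta-Ac libraries were spread between, at 31.7, 22.0, 18.2, 34.6 and 39.4 CPM in BAC128, BAC130, BAC136, BAC235 and BAC237, and overlapped both other groups.

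Group means of CUX1 were 40.5 ± 4.93 CPM in control, 29.2 ± 8.83 with Beta-Ac and 21.0 ± 2.02 with the clinical drug (SD, n = 5). The log2 fold change of the clinical drug against control was -0.95 (SE 0.18), a 1.93-fold lower level, and it was -0.88 (SE 0.18) without CTL212. Beta-Ac gave -0.47 (SE 0.17) against control, and the clinical drug gave -0.47 (SE 0.18) against Beta-Ac.

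Split by run, the same CUX1 values were lower with the clinical drug in both runs that held all groups, each with a lone control. In the run of 7 libraries the mean CPM of the clinical drug was 0.514 times that of the lone control, and in the run of 5 it was 0.462 times. For Beta-Ac these ratios were 0.605 and 0.773, and both Beta-Ac libraries of the run of 5 lay above all 3 of the run of 7. With CTL212 left out and the run as a block, the CUX1 difference was -1.06 (SE 0.25) but was no longer called. That fit compares the drugs with CTL113 alone, because no other remaining control shared a run with a treated library, and it called none of 17300 genes (0%), with 2298 at an unadjusted p under 0.05.

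CUX2, the paralog of CUX1 in superficial-layer neurons, varied widely among the controls. It was 31.8, 36.4, 13.8, 20.5 and 43.4 CPM in CTL092, CTL101, CTL113, CTL209 and CTL212, with CTL212 highest. It was 18.1, 24.9, 15.4, 12 and 10.4 CPM in CEL115, CEL120, CEL126, CEL238 and CEL245, so that 2 controls lay inside the range of the clinical drug. Beta-Ac libraries held 21.2, 27.5, 15.9, 14.8 and 24.3 CPM in the order BAC128, BAC130, BAC136, BAC235 and BAC237.

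For CUX2 the log2 fold change was -0.85 (SE 0.30) for the clinical drug and -0.49 (SE 0.29) for Beta-Ac, each against control. Without CTL212 these values were -0.67 (SE 0.29) and -0.31 (SE 0.29), and CUX2 was no longer called. The call was lost without any of 7 of the 10 libraries compared, and was kept without CTL113, CTL209 or CEL120. The direction depended on the run. In the run of 7 libraries, where CTL113 was the control, the mean CUX2 level was 1.41 times the control with the clinical drug and 1.56 times with Beta-Ac. In the run of 5, where CTL212 was the control, the same ratios were 0.258 and 0.450. With CTL212 left out and the run as a block, the clinical drug gave 0.37 (SE 0.37), the opposite sign.

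Markers of meninges, striatum and thalamus moved with CUX2, and markers of hippocampal neurons and of some other cell types moved against it. Over 15 libraries its log2 CPM had a Pearson r of 0.78 with the summed meninges markers (0.70 without CTL212), of 0.69 with striatum markers (0.56) and of 0.63 with thalamus markers (0.76). CUX2 had an r of -0.64 with hippocampal neuron markers (-0.57 without CTL212) and of -0.53 with dentate granule markers (-0.57). With astrocyte markers r was -0.51 (-0.46), with microglia markers -0.52 (-0.48) and with T cell markers -0.52 (-0.56). With choroid plexus markers it was 0.46 over 15 libraries but -0.24 without CTL212. Group means were not taken off, so differences between groups enter these r. These points share libraries and depth, and r is a description. The 5 meninges markers found of 6 listed summed to 101 to 995 CPM in control, 81.0 to 543 with Beta-Ac and 53.7 to 233 with the clinical drug. The 10 striatum markers found of 12 summed to 152 to 246, 135 to 234 and 114 to 150 CPM, and the 8 thalamus markers to 93.8 to 211.6, 65.3 to 186 and 61.7 to 115 CPM. Of the 10 striatum markers 8 were above 0 in all 15 libraries, among them DRD1 (8.52 to 31 CPM) and PPP1R1B (19 to 156 CPM), while SIX3 was at 0 in 1 library and ISL1 in 13. Of the 8 thalamus markers 6 were above 0 in all libraries, among them LHX9 (0.464 to 6.51 CPM) and SLC17A6 (13.3 to 139 CPM), while GBX2 and SHOX2 were each at 0 in 9. The part of such tissue in the CUX2 values was not tested. CUX1 had an r of 0.60 with the meninges markers (0.50 without CTL212) and of -0.59 with astrocyte markers (-0.55). The 7 astrocyte markers summed to 2526 to 3813 CPM in control, 2539 to 4526 with Beta-Ac and 3544 to 4873 with the clinical drug. The part of either cell type in the CUX1 values was not tested.

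POU3F2, a POU-domain factor of superficial-layer neurons and their progenitors, was higher with the clinical drug. It was 12.6, 12.6, 12.8, 10.1 and 12 CPM in the controls and 11.2, 14, 11.5, 11.6 and 12.7 CPM in the Beta-Ac libraries, each in the order given above. In CEL115, CEL120, CEL126, CEL238 and CEL245 it was 14.6, 19.2, 14.9, 17.2 and 21.2 CPM. All 5 clinical-drug libraries thus lay above all 5 controls (5.07% of all tested genes did) and above all 5 Beta-Ac libraries (1.55% did), while Beta-Ac and control overlapped.

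Means of POU3F2 were 12 ± 1.13, 12.2 ± 1.15 and 17.4 ± 2.82 CPM in control, Beta-Ac and clinical-drug libraries (SD, n = 5). The log2 fold change of the clinical drug was 0.54 (SE 0.13) against control and 0.51 (SE 0.13) against Beta-Ac. Its fold of 1.45 against control lay under the minimum of 1.5, so POU3F2 was not called, although it passed without CEL115 or CEL126, at 0.59 each. The value was 0.54 (SE 0.14) without CTL212. Within the runs of 7 and 5 libraries the mean with the clinical drug was 1.27 and 1.60 times the control, against 0.957 and 1.01 times for Beta-Ac. Of marker lists, POU3F2 had an r of 0.62 with microglia markers over 15 libraries (0.61 without CTL212) and of -0.51 with interneuron markers (-0.65). With dentate granule markers r was 0.51 (0.50), and with hippocampal neuron markers 0.46 (0.44). Group means were not taken off, so differences between groups enter these r. The 3 microglia markers found of 7 summed to 57.9 to 129 CPM in control, 79.5 to 109 with Beta-Ac and 88.2 to 152 with the clinical drug. The part of these cell types in the POU3F2 values was not tested.

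RORB, a nuclear receptor of granular-layer neurons, differed mainly in the Beta-Ac libraries. It was 5.71, 7.54, 4.69, 2.94 and 3.48 CPM in the controls and 4.87, 6.74, 4.98, 3.41 and 3.72 CPM in the clinical-drug libraries. Beta-Ac libraries held 4.15, 2.6, 3.01, 1.31 and 1.97 CPM, the lower end of the range, and overlapped both other groups.

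RORB gave a log2 fold change of -0.90 (SE 0.31) for Beta-Ac and -0.04 (SE 0.31) for the clinical drug, each against control. Without CTL212 it was -1.0 (SE 0.32) and -0.14 (SE 0.32), and without BAC235, the lowest library, the Beta-Ac value was -0.73. Directly compared, the clinical drug was higher than Beta-Ac by 0.86 (SE 0.31). Within the runs of 7 and 5 libraries, the mean RORB level with Beta-Ac was 0.693 and 0.471 times that of the control. The clinical drug gave 1.18 and 1.02 times. Among all genes 0% were called between the drugs by edgeR, with 2346 at an unadjusted p under 0.05, and DESeq2 called 186 genes. RORB was called between the drugs only with CTL212 left out and the run as a block, where 110 of 17300 tested genes were called.

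FEZF2 and BCL11B, zinc-finger factors of deep corticofugal neurons, did not separate the groups. FEZF2 was 72.9, 62.5, 71.5, 126 and 41.9 CPM in control, 52.5, 122, 89.1, 71.4 and 66.0 CPM with Beta-Ac, and 59.8, 76.0, 60.9, 73.6 and 80.7 CPM with the clinical drug. The clinical-drug libraries were the least spread, with an SD of 9.36 CPM against 31.2 in control and 26.7 with Beta-Ac. BCL11B was 21.3, 15.9, 12.5, 23.0 and 7.28 CPM in control, 7.15, 23.4, 14.4, 11.1 and 10.3 CPM with Beta-Ac, and 11.5, 14, 9.31, 20.3 and 22.8 CPM with the clinical drug. CTL212 was the lowest control for both genes.

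Against control, FEZF2 gave a log2 fold change of -0.10 (SE 0.25) with the clinical drug and 0.10 (SE 0.25) with Beta-Ac. BCL11B gave -0.04 (SE 0.35) and -0.27 (SE 0.35). Without CTL212 the values of the clinical drug were -0.25 (SE 0.23) for FEZF2 and -0.22 (SE 0.32) for BCL11B. Within the run of 5 libraries, where CTL212 was the control, FEZF2 with the clinical drug was 1.84 times and BCL11B 2.96 times the control. In the run of 7 they were 0.917 and 0.932 times.

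ZBTB20, a zinc-finger factor of hippocampal pyramidal neurons, was counted at very low levels in these libraries. It held 11 to 47 reads per control library, 9 to 51 with Beta-Ac and 19 to 45 with the clinical drug. Its level was 0.551 to 1.83 CPM in control (median 1.40), 0.371 to 1.73 with Beta-Ac (median 1.2) and 0.962 to 2.21 with the clinical drug (median 1.44), and all groups overlapped. The log2 fold change of the clinical drug was 0.18 (SE 0.41) and that of Beta-Ac -0.21 (SE 0.41), so each difference was smaller than its standard error.

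LMO3, a LIM-only cofactor of neuronal transcription factors, had its lowest levels in treated libraries but also in CTL212. It was 176, 79.7, 81.0, 84.0 and 41.7 CPM in the controls, 40.9, 105, 54.9, 45.5 and 35.7 CPM with Beta-Ac, and 66.0, 88.9, 41.6, 55.5 and 55.5 CPM with the clinical drug. The 4 other controls lay at 79.7 or above, and 4 of 5 Beta-Ac and 4 of 5 clinical-drug libraries lay below them. On the log2 scale the change was -0.72 (SE 0.34) with Beta-Ac and -0.59 (SE 0.34) with the clinical drug, and without CTL212 it was -0.90 (SE 0.32) and -0.77 (SE 0.32). Without CTL092, the highest library, it was -0.35 and -0.22. In the run of 5 libraries, where CTL212 was the control, the ratios to control were 0.973 for Beta-Ac and 1.33 for the clinical drug, against 0.825 and 0.808 in the run of 7.

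Against Beta-Ac, the clinical drug gave -0.36 (SE 0.30) for CUX2, 0.24 (SE 0.35) for BCL11B, -0.19 (SE 0.25) for FEZF2, 0.39 (SE 0.41) for ZBTB20 and 0.13 (SE 0.34) for LMO3 on the log2 scale. None of the 8 factors was called in this contrast. Of all 8 in the Beta-Ac group, none lay below every control library, as 0.868% of tested genes did.

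BCL11B, FEZF2 and LMO3 varied together from fetus to fetus. With group means taken off, log2 CPM over 15 libraries gave a Pearson r of 0.87 for BCL11B with FEZF2, 0.71 for BCL11B with LMO3 and 0.62 for FEZF2 with LMO3. ZBTB20 ran the other way, with r of -0.70 to BCL11B, -0.60 to FEZF2 and -0.60 to LMO3, on few reads. For marker lists, r was taken without removing group means. FEZF2 had an r of 0.64 with interneuron markers (0.54 without CTL212), of 0.13 with striatum markers (0.65) and of -0.29 with hippocampal neuron markers (-0.60). LMO3 had an r of -0.52 with astrocyte markers (-0.63), of 0.50 with thalamus markers (0.51) and of 0.27 with striatum markers (0.55). The 5 interneuron markers found of 8 summed to 423.4 to 843.5 CPM in control, 511.5 to 851.3 with Beta-Ac and 426 to 618.2 with the clinical drug. The part of these cells and tissues in the values was not tested. CUX1 and CUX2 had an r of 0.55 over all libraries but of 0.17 with group means taken off. CUX1 and POU3F2 went from -0.52 to 0.23 in the same way. These correlations are a description of 15 libraries that share runs and depth scaling.

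**Figure D2:**
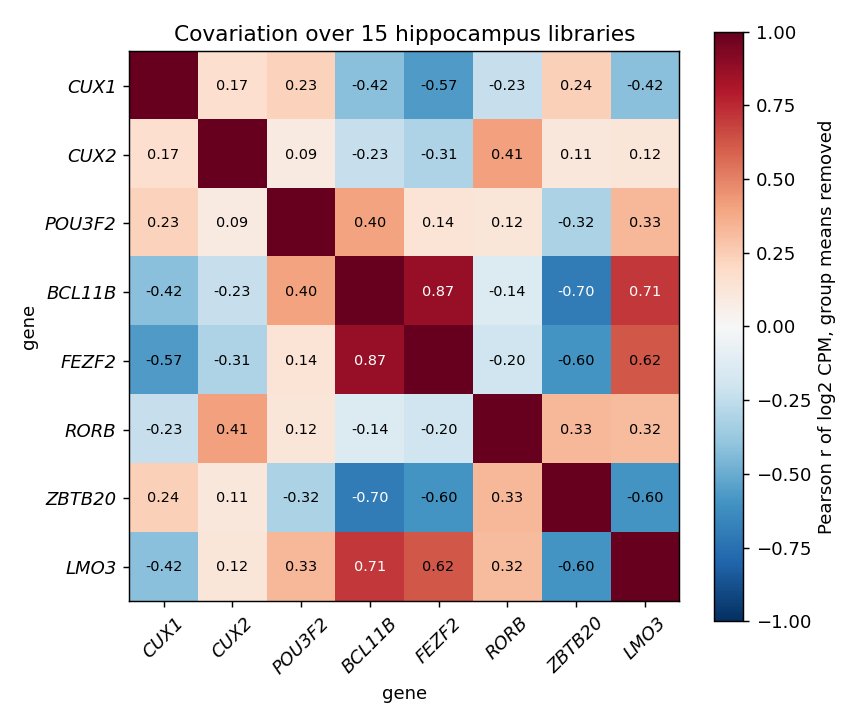
Pearson r between the log2 CPM of each pair of factors over 15 hippocampus libraries after group means were taken off, from -1 (blue) to 1 (red). BCL11B, FEZF2 and LMO3 form a group with r of 0.62 to 0.87, and ZBTB20 has negative r with all 3.

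Of 12042 named genes with a mean of at least 1 CPM, those whose log2 CPM followed CUX1 most closely over the 15 libraries were GSR (r = 0.976), MCMBP (0.965) and SUPT6H (0.962). For CUX2 they were BCOR (0.929), FHIP1A (0.869) and COL14A1 (0.866), and for POU3F2 SH2B3 (0.917), GPR161 (0.892) and KLF13 (0.866). FEZF2 was followed by NTNG1 (0.975), KLHL13 (0.929) and HPCAL4 (0.909), and BCL11B by ADGRA1 (0.930), KCNC4 (0.907) and PITPNM3 (0.899). RORB was followed by BCLAF3 (0.920), CAMSAP2 (0.901) and FNIP2 (0.895). For LMO3 they were ADGRL3 (0.959), RGS4 (0.953) and GLRA2 (0.921), and for ZBTB20 MYO5B (0.880), TSPAN18 (0.875) and NRP1 (0.872). These are the highest of many values and are given as a description. Without CTL212 the largest drop was that of COL14A1 and FHIP1A with CUX2, to 0.820 each.

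A list of 26 other layer and pyramidal factors was tested with edgeR in hippocampus. It too was drawn up with earlier results of these data known, so its adjusted p-values are not independent evidence. With the clinical drug, 2 of the 26 were called higher than control and none lower, against 2.5% and 5.35% of all genes. The values were above 0 for 18 of the 26, with a median log2 fold change of 0.16 against -0.02 over all tested genes. Without CTL212, 16 of 26 were above 0, and the median was 0.11 against 0.02.

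The factors called were NEUROD1 and ZBTB18, both of the pyramidal lineage. NEUROD1, a proneural factor of newborn glutamatergic neurons and dentate granule cells, was 38.6 to 83.2 CPM in control (median 57.9), 35.0 to 159 with Beta-Ac (median 95.4) and 115 to 149 with the clinical drug (median 124). Every clinical-drug library lay above every control, as was the case for 5.07% of all tested genes. The log2 fold change was 1.18 (SE 0.30, adjusted p = 0.0242 by edgeR with Benjamini-Hochberg adjustment), and 1.19 without CTL212 (adjusted p = 0.0331). With the run as a block it was 0.86 (SE 0.42, adjusted p = 0.217), so the call was lost, and with CTL212 also left out it was 0.56 (SE 0.55, adjusted p = 0.668). The 6 dentate granule markers summed to 137.7 to 200.3 CPM in control, 129.1 to 241.4 with Beta-Ac and 191.3 to 281.6 with the clinical drug, and their part in the NEUROD1 values was not tested.

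ZBTB18, a zinc-finger repressor needed in developing cortical and hippocampal projection neurons, was 287 to 486 CPM in control (median 399), 321 to 496 with Beta-Ac (median 462) and 554 to 716 with the clinical drug (median 669). The clinical-drug libraries lay above all controls (5.07% of all tested genes did) and above all Beta-Ac libraries (1.55% did). Its log2 fold change was 0.76 (SE 0.15, adjusted p = 0.014 by edgeR), 0.69 without CTL212 (adjusted p = 0.0171) and 0.75 with the run as a block (adjusted p = 0.0532). With CTL212 left out and the run as a block it was 0.59 (SE 0.20, adjusted p = 0.313) and was not called. Against Beta-Ac the clinical drug gave 0.59 (SE 0.15, adjusted p = 0.219 by edgeR) for ZBTB18 and 0.49 (SE 0.30, adjusted p = 0.475) for NEUROD1.

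By role, all 8 tested factors of the pyramidal lineage had log2 values above 0 with the clinical drug, from 0.08 to 1.18 with a median of 0.44, and 7 of the 8 did without CTL212. Of the 10 deep-layer factors, 5 were above 0, with a median of 0.01 and a range from -0.43 to 0.40. Of the 8 superficial-layer factors, 5 were above 0, with a median of 0.25 and a range from -0.42 to 1.24. No deep-layer or superficial-layer factor of this list was called in the fit without a block. With the run as a block, BHLHE22, a superficial-layer factor, gave 0.63 (SE 0.12, adjusted p = 0.0531 by edgeR) and NEUROD2, of the pyramidal lineage, 0.68 (SE 0.13, adjusted p = 0.0531), and both were called higher along with ZBTB18. Without the block they gave 0.41 (SE 0.21, adjusted p = 0.199) and 0.46 (SE 0.15, adjusted p = 0.0542). With CTL212 left out and the run as a block neither was called (adjusted p = 0.3 each). Hippocampal neuron markers, which include NEUROD6 of the same list, summed to 4010 to 4812 CPM with the clinical drug against 3257 to 4322 in control and 2952 to 4175 with Beta-Ac, and their part in these values was not tested. With Beta-Ac none of the 26 was called, and the median was -0.05 against -0.01 over all genes.

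**Figure D3:**
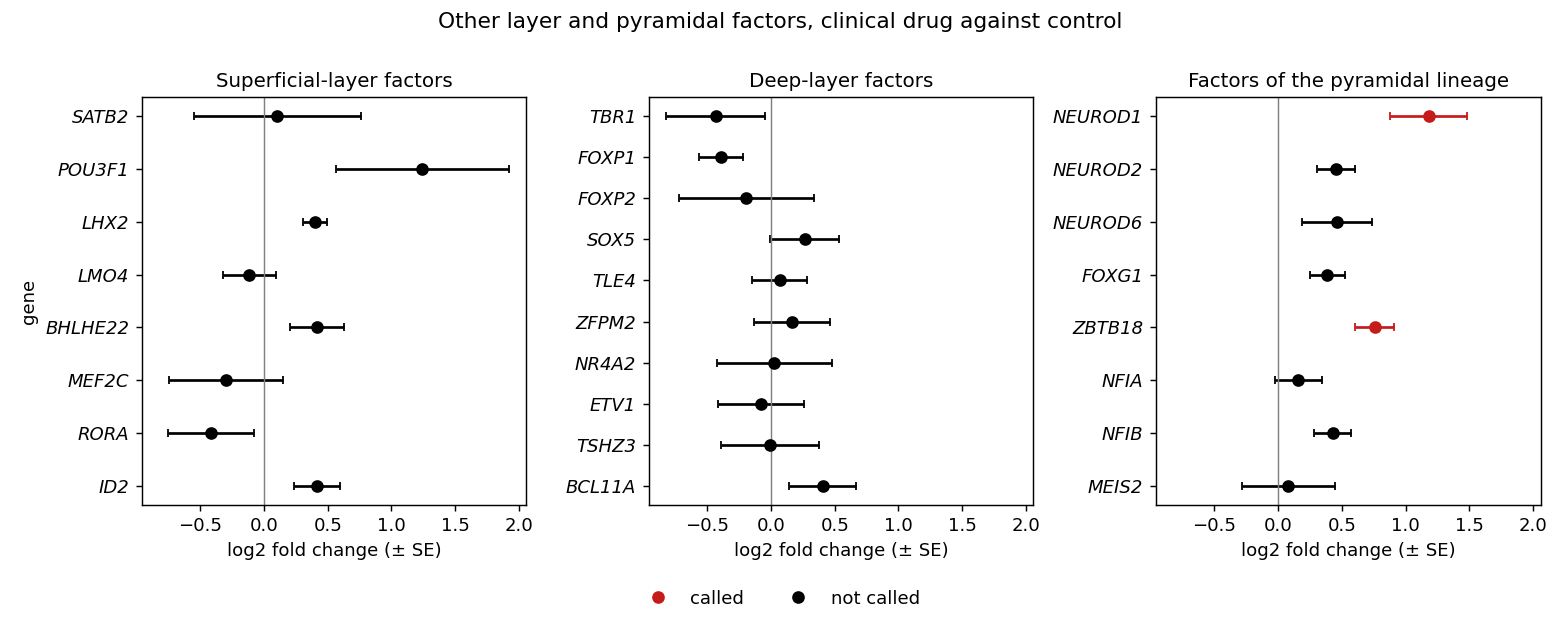
Log2 fold change of the clinical drug against control with its SE (horizontal axis) for 26 other factors in hippocampus, by role, with called genes in red. NEUROD1 (1.18) and ZBTB18 (0.76) are called, and all 8 pyramidal-lineage factors lie above 0.

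The rule that chose the 8 factors used no lung libraries, so the lung values were tested. Earlier results of these data were known at the choice, and 9 lung fetuses, the saline ones among them, also gave a hippocampus. The lung tests are thus not fully independent of the choice. Lung is not a neural tissue, and most of the factors were barely counted there. CUX1, CUX2, BCL11B and ZBTB20 passed the minimum of 7 reads in at least 3 of the 15 libraries, while POU3F2, FEZF2 and RORB had at most 5 reads in any library. LMO3 was not analysed in lung. Counts in lung and hippocampus cover different sets of genes (30246 and 32386), so no level is compared across the tissues.

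CUX1, which many tissues express, was 87.1 to 105 CPM in the saline lungs and 91.2 to 155 CPM in the 4 treated groups, which overlapped with saline. Its log2 fold change was 0.11 (SE 0.16, q = 0.537 by edgeR with Storey's method) at 4 h after the clinical drug and 0.27 (SE 0.16, q = 0.407) at 6 h after Beta-Ac. The later values were 0.11 (SE 0.16, q = 0.931) with the clinical drug and -0.04 (SE 0.16, q = 0.938) with Beta-Ac, both at 5 days.

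CUX2 was called lower in lung at 4 h after the clinical drug, on few reads. It was 0.552, 0.958 and 1.37 CPM in the 3 saline lungs (11 to 23 reads). At 4 h it was 0.150, 0.394 and 0.501 CPM (2 to 17 reads). Its log2 fold change was -1.40 (SE 0.47, q = 0.0729 by edgeR with Storey's method), where 3.94% of 17644 tested genes were called lower and 3.46% higher. The call was lost with Benjamini-Hochberg adjustment, without a filter on low counts, and without either of 2 saline or 2 treated lungs, with values from -1.69 to -1.06 over the lungs left out. Beta-Ac at 6 h gave -0.88 (SE 0.45, q = 0.362), and 5 days gave -0.64 (SE 0.45, q = 0.931) with the clinical drug and -0.45 (SE 0.44, q = 0.858) with Beta-Ac.

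BCL11B, which T lymphocytes also require, was counted at 0 to 27 reads per lung. It was 0.1 to 0.548 CPM in saline, 0 to 0.250 CPM at 4 h after the clinical drug, 0.658 to 1.30 CPM at 6 h after Beta-Ac, 0.404 to 0.968 CPM at 5 days after the clinical drug and 0.694 to 0.781 CPM at 5 days after Beta-Ac. The means of the 2 early groups lay on opposite sides of that of saline, with a log2 fold change of -1.58 (SE 0.76, q = 0.193 by edgeR with Storey's method) for the clinical drug and 1.19 (SE 0.63, q = 0.370) for Beta-Ac, and neither was called. The 5-day values were 0.79 (SE 0.64, q = 0.931) for the clinical drug and 0.91 (SE 0.63, q = 0.803) for Beta-Ac. The 6 T cell markers found of 9 listed summed to 10.2 to 20.4 CPM in saline, 4.49 to 6.57 CPM at 4 h after the clinical drug and 10.9 to 19.3 CPM at 6 h after Beta-Ac. Their part in the BCL11B values was not tested.

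ZBTB20 was 0.0595 to 1.1 CPM in saline lungs, a wider range than in any treated group, and its log2 fold changes of 0.37 to 0.96 had SE of 0.75 to 0.76 and were not called. None of the 4 tested factors was called with Beta-Ac at 6 h, where 0.442% of genes were, or at 5 days, where 0.00567% were called with Beta-Ac and 0% with the clinical drug (0 genes by edgeR, 775 at an unadjusted p under 0.05, and 16 by DESeq2).

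**Figure D4:**
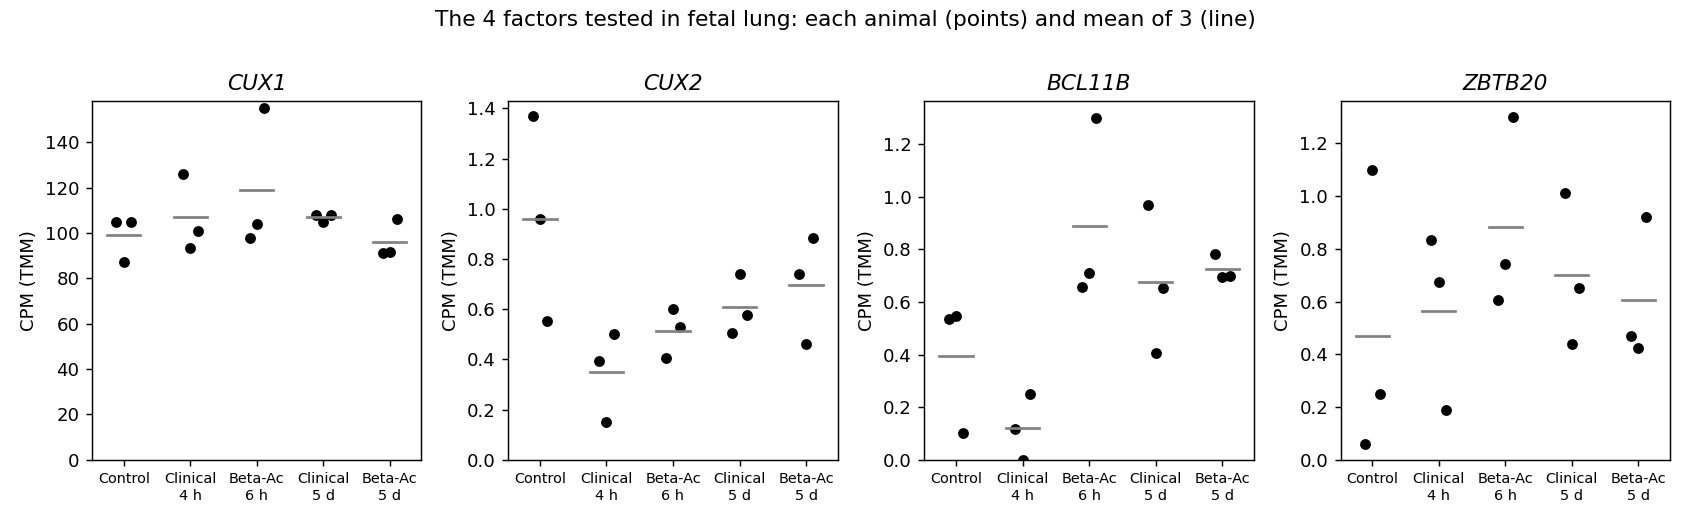
CPM (vertical axis, from 0) of the 4 factors tested in lung, for each of the 3 fetuses per group, with the group mean as a line. CUX2 is at 0.150 to 0.501 CPM at 4 h after the clinical drug and at 0.552 to 1.37 CPM in saline. CUX1 groups overlap between 87.1 and 155 CPM.

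Of the 17 other layer and pyramidal factors tested in lung, TLE4 was called higher and MEIS2 lower at 4 h after the clinical drug, and they are named here after their values were seen. Over all 17644 tested genes 3.46% were called higher and 3.94% lower in that contrast. TLE4, a corepressor, was 87.5 to 149 CPM at 4 h against 46.3 to 59.5 in saline (log2 fold change 1.15, SE 0.16, q = 0.000502 by edgeR). MEIS2, a homeobox factor, was 36.9 to 57.2 CPM against 93.2 to 101 in saline (log2 fold change -1.14, SE 0.18, q = 0.00124). At 5 days after the clinical drug TLE4 gave 0.15 (SE 0.16) and MEIS2 -0.16 (SE 0.18, q = 0.931), and neither was called. After Beta-Ac TLE4 gave 0.08 (SE 0.16) at 6 h and -0.07 (SE 0.16) at 5 days. MEIS2 was 55.3 to 93 CPM at 6 h after Beta-Ac (-0.32, SE 0.18, q = 0.389) and 67.2 to 75.5 CPM at 5 days (-0.43, SE 0.18, q = 0.727), against 82.3 to 89.9 CPM at 5 days after the clinical drug, and was not called after Beta-Ac.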

How the data were processed

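The authors aligned paired-end reads of 75 bp to the rhesus build MMUL1.0, as the methods state in a passage that names lung RNA, and deposited counts of whole reads per Ensembl gene, made with featureCounts. Per the labels, Bowtie 1.2.1.1 and featureCounts 1.5.1 served for lung and Bowtie 2 for poly(A)-selected hippocampus. The tables hold different sets of gene identifiers, probably from different annotations, and were analysed apart. Symbols came from a table of Ensembl identifiers.

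Counts were normalized by TMM in edgeR 4.0.16 (R 4.3.3) and tested by the quasi-likelihood F-test, with 1 fit of 15 libraries per tissue, on genes reaching 7 reads in 5 or more hippocampus or 3 or more lung libraries. p-values were adjusted over all tested genes by Benjamini-Hochberg (hippocampus) or Storey's method (lung). CPM are TMM-scaled, and correlations used log2 CPM with a prior count of 2. Adjusted p and q values in the text come from these fits. The procedure was tested on simulated counts.

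Replicates were separate animals, and no pair of libraries of a group agreed within counting noise (lowest chi-square per degree of freedom 14.6). Library numbers do not pair animals across groups. Counting error alone did not set the precision, so no intervals for it are given.

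The 8 factors and all gene lists were chosen with earlier results of these data known. All 8 are named, as are other listed factors called in hippocampus and the 3 genes most like each member. Alternatives were RLE normalization, filterByExpr, no filter, DESeq2 1.42.0, the other adjustment, no fold minimum, only the 2 groups compared, run as a block, only the 2 runs with all groups, and each library left out. The 2 runs with a block, and CTL212 left out with a block, were added after seeing the data. Promoter and protein sequences were not used here.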

Additional observations from a re-analysis of the deposited data

Results flagged for a closer look

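A library was set apart where its gap to the nearest other library of its group of 5 exceeded 0.71 of the group's range (Dixon's 95% value). Of 60 groups examined, 5 were, and chance alone sets apart about 1 in 20 groups. Among the 8 factors, POU3F2 was low in CTL209, at 10.1 CPM, and LMO3 was high in BAC130, at 105 CPM. Among marker sums, BAC130 was high for striatum markers (234 CPM), CTL092 for thalamus markers (211.6 CPM) and CTL212 for choroid plexus markers (1186 CPM). CTL092 also had the highest LMO3 level of all libraries, at 176 CPM. Without BAC130 the LMO3 log2 fold change of Beta-Ac against control was -1.06, and without CTL209 that of POU3F2 with the clinical drug kept its sign.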

How the results depend on the processing

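Of 638 alternative log2 fold changes, 597 kept their side of the thresholds. Those called also kept their sign, and those not called also moved by less than the spread. Only 1 value that had been called changed its sign. That was CUX2 with the clinical drug in hippocampus, at 0.37 with CTL212 left out and the run as a block, a fit that rests on CTL113 as the only control. CUX1 was called in all settings but that one.

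For the clinical drug against control, 1366 genes, 2 members and 2 other factors were called. No fold minimum gave 3816 genes and 6 other factors. Run as a block gave 958 genes, 1 member and 3 other factors. The 2 runs with all groups gave 229 genes, 1 member and 0 other factors, and with a block 596 genes, 1 member and 3 other factors. CTL212 left out with a block gave 0, 0 and 0. Leaving out each library gave 960 to 1751 genes and 1 to 2 members, with 1 member without CTL092, CTL101, CTL212, CEL238 or CEL245.

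For Beta-Ac against control, where 0 genes were called, DESeq2 called 149, Storey's method 1 and the 2 runs with all groups 18. Leaving out each library gave 0 to 184, the latter without BAC128. Between the drugs (0 genes), DESeq2 gave 186 genes and 2 other factors, run as a block 13 and the 2 runs with a block 2. With CTL212 left out and a block, 110 of 17300 tested genes were called, among them 1 member and 1 other factor.

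In lung at 4 h, 1306 genes and 1 member were called. No filter gave 1050 genes and 0 members, and Benjamini-Hochberg adjustment 1099 and 0. Leaving out each lung gave 1005 to 1287 genes and 0 to 1 members. For Beta-Ac at 6 h (78 genes) DESeq2 gave 247, and leaving out each lung 9 to 211. At 5 days the clinical drug (0 genes) gave 1 without a filter, 16 by DESeq2 and 0 to 9 with each lung left out. Beta-Ac at 5 days (1 gene) gave 2, 40 and 0 to 2. ZBTB20 in lung moved by more than its spread without saline lung 2, to between 1.84 and 2.42.

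No paired analysis was possible because the library numbers do not pair fetuses across groups. With 5 or 3 fetuses per group, small differences of variable genes such as BCL11B or ZBTB20 could not be told from 0, and the cause of each change above was not tested.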
